A study of Danio rerio with 24 samples.

Results

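The genes described here are 36 zebrafish genes of the DNA damage response. They were chosen by name, with no measured value in the rule, but with earlier results of these data known. Here 18 are counted as p53 targets and 18 as genes of DNA repair and damage checkpoints. The gene ddb2, a p53 target in mammals, is counted with the repair genes. Whether p53 acts on each of the 18 in these larvae was not tested. All 36 were found among the 39974 genes of the deposited table, and all 36 were among the 22682 genes tested. RNA was sequenced from whole larvae of the wildtype AB strain at 5 days after fertilization, exposed from 4 hours after fertilization onwards. The groups were a mixture of 1 µM sodium arsenite with 30 µg/L uranyl nitrate, vehicle (all exposures were made up in dilute Danieau's solution), sodium arsenite alone at 1 or 10 µM, and uranyl nitrate alone at 30 or 300 µg/L, as a soluble form of uranium that the series title calls depleted. There were 4 libraries in each of the 6 groups, made from 10 pooled larvae apiece, so that differences between single animals are not seen. The labels call the libraries biological replicates but do not say whether the pools came from separate spawnings, so p-values measure the spread between pools.

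When DNA is broken or its bases are altered, the kinases atm and atr signal the lesion, chek1 and chek2 pass the signal on, and the transcription factor p53 is held at a higher level and activates genes for cell cycle arrest, repair and cell death. Its target mdm2 encodes the ligase that marks p53 for destruction and so closes a feedback loop. Altered single bases are removed by base excision repair, bulky lesions by nucleotide excision repair, and mispaired bases by mismatch repair. In mammalian cells, trivalent arsenic is known to bind zinc finger proteins, among them the repair enzyme PARP1.

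Values are FPKM, that is, fragments counted for a gene, divided by how long the gene is and by how many fragments the library held. Whole read numbers could be recovered from these values, and their totals ran from 15456854 to 22987080 per library (median 18261463). Per length, sesn1 had the highest mean level of the 36 genes over the 24 libraries, at 145 FPKM, and polh the lowest, at 0.564 FPKM. A total of 7 genes averaged below 2 FPKM, 22 from 2 to 20 FPKM, and 7 at 20 FPKM or more. Within groups the median coefficient of variation was 11.6% over the 36 genes and 11.3% over all genes tested. The markers of liver, exocrine pancreas, muscle, red cells, photoreceptors, neurons and skin that a whole larva should hold were each above 0 in at least 1 library. That is a weak check, and the 3 red cell markers together had only 10.7 to 27.9 FPKM. Since whole larvae were sequenced, fewer cells of a type and less RNA per cell cannot be told apart.

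The largest set of differences among the 36 genes lay between the doses of uranyl nitrate. At 300 µg/L against 30 µg/L, 11 of the 36 genes (30.6%) passed the test, against 6.65% of all genes tested, and 22 had an unadjusted p under 0.05, where 20.9% of all genes did. Because the list was chosen with earlier results known, this share and those below describe the list and do not test it. The p53 targets sesn1, pmaip1, btg2, tp53inp1 and bbc3 were higher (5 genes, where 2.63% of all genes were called higher). The repair and checkpoint genes apex1, parp1, xrcc1, msh6, atm and chek1 were lower (6 genes, where 4.03% of all genes were called lower). A gene is called where the adjusted p of limma, Benjamini-Hochberg over all genes tested in that comparison, is under 0.05, and fold changes are on the log2(FPKM + 1) scale. Each exposed group had fewer calls against vehicle, and the gene called most often there was the stress sensor gene gadd45bb.

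**Figure D1:**
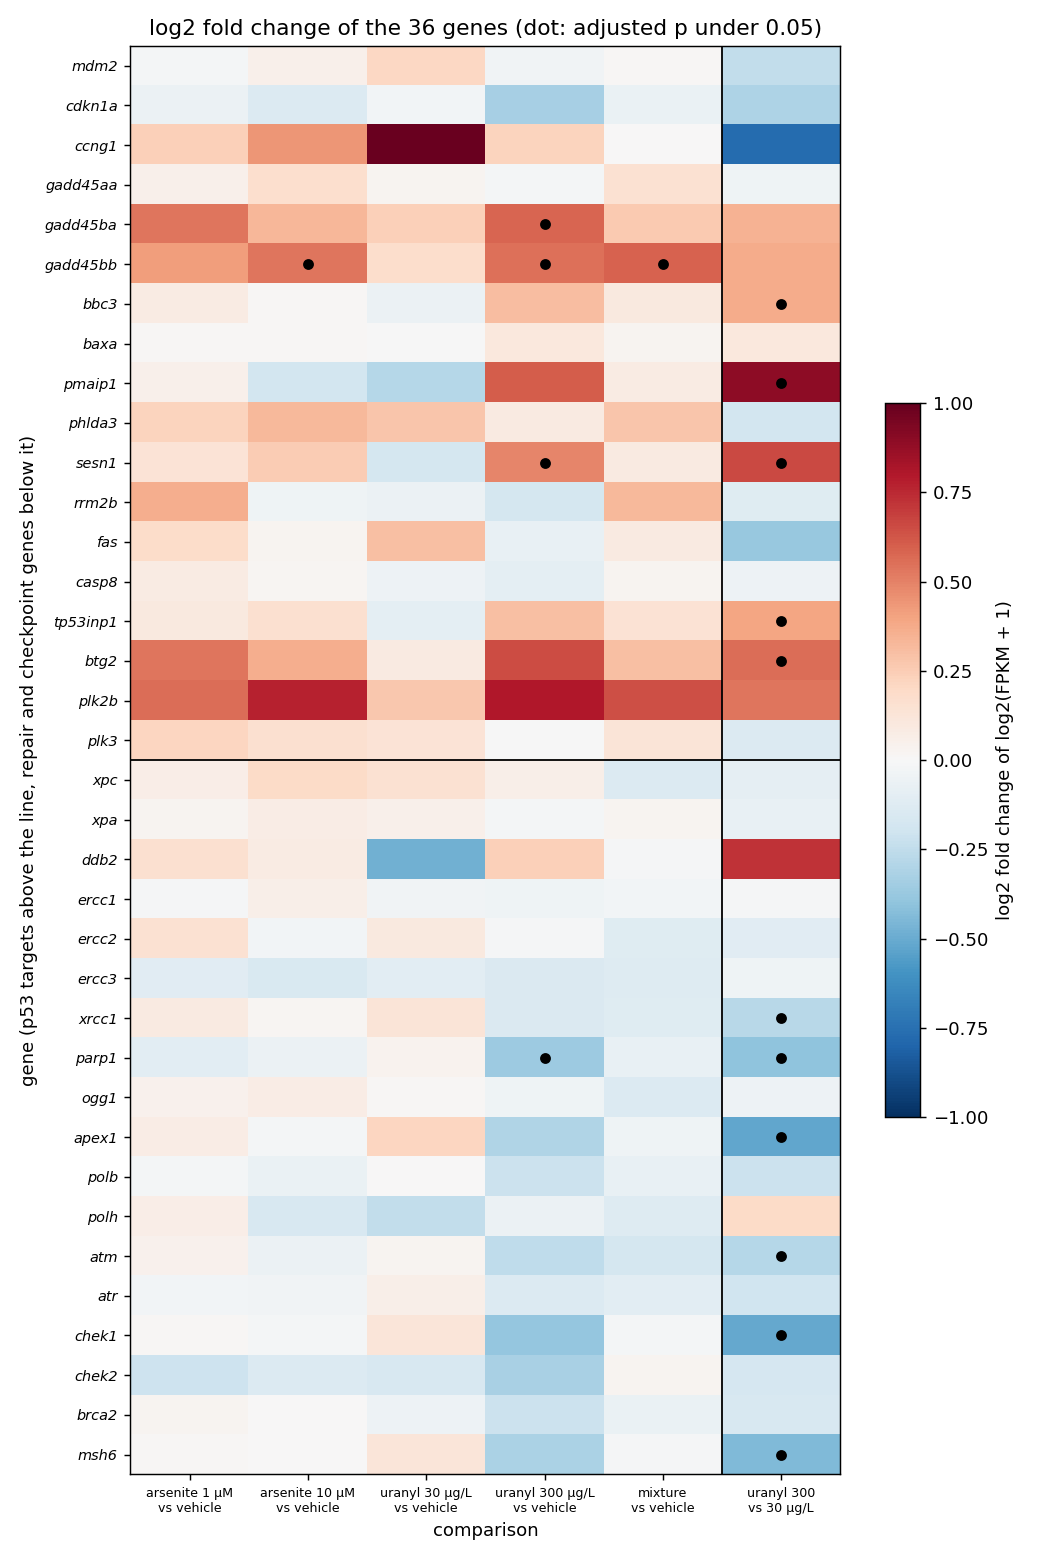
Each row is 1 of the 36 genes and each column 1 comparison, with the colour giving the difference in log2(FPKM + 1) between group means of 4 libraries each and a dot where limma's adjusted p was under 0.05. The 5 dots of the last column above the line are p53 targets higher at 300 than at 30 µg/L uranyl nitrate, and the 6 dots below it are repair and checkpoint genes that were lower.

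Among the p53 targets, sesn1 encodes sestrin 1, which restrains the growth kinase mTOR under stress. It had 191, 174, 165 and 205 FPKM in larvae at 300 µg/L uranyl nitrate, against 122, 135, 105 and 102 FPKM at 30 µg/L. The other groups had 163, 134, 129 and 130.4 FPKM in the mixture larvae, 116, 148, 135 and 123 in vehicle larvae, 126, 169.6, 125 and 159 at 1 µM arsenite and 141, 159.5, 184 and 140.1 at 10 µM arsenite. The 4 libraries at 300 µg/L were all above those at 30 µg/L and above those of vehicle larvae, and 1 library at each arsenite dose reached into their range. The gene rose at 300 µg/L against 30 µg/L (log2 fold change 0.66, SE 0.118, adjusted p 0.00520, limma) and against vehicle (log2 fold change 0.49, SE 0.118, adjusted p 0.0393, limma).

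The gene pmaip1 encodes Noxa, a pro-death protein that binds the survival proteins of mitochondria. It had 13.0, 12.8, 11.9 and 12.8 FPKM in larvae at 300 µg/L uranyl nitrate, against 6.96, 6.99, 3.73 and 8.54 FPKM at 30 µg/L. The other groups had 9.08, 8.70, 7.27 and 8.94 FPKM in the mixture larvae, 7.66, 8.46, 10.6 and 5.70 in vehicle larvae, 6.45, 11.8, 6.24 and 9.69 at 1 µM arsenite and 10.5, 6.85, 4.96 and 6.10 at 10 µM arsenite. All libraries at 300 µg/L were higher than any other library, while replicate 3 at 30 µg/L was the lowest of all 24. The rise at 300 µg/L against 30 µg/L was the largest among the called genes (log2 fold change 0.90, SE 0.214, adjusted p 0.0176, limma), and the difference from vehicle was not called (0.61, adjusted p 0.141, limma).

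Its relative bbc3, which encodes the pro-death protein Puma, had 7.18, 6.995, 6.00 and 7.79 FPKM in larvae at 300 µg/L uranyl nitrate, against 5.76, 5.81, 4.12 and 5.14 FPKM at 30 µg/L. The other groups had 6.23, 5.73, 5.94 and 5.66 FPKM in the mixture larvae, 4.66, 6.36, 4.84 and 6.04 in vehicle larvae, 4.90, 6.58, 5.44 and 6.54 at 1 µM arsenite and 4.70, 6.17, 5.68 and 5.53 at 10 µM arsenite. The groups at 300 and 30 µg/L did not overlap, although the lowest library at 300 µg/L was only slightly above the highest at 30 µg/L, and vehicle larvae overlapped both. The gene rose at 300 µg/L against 30 µg/L (log2 fold change 0.37, SE 0.107, adjusted p 0.0408, limma).

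The p53-induced nuclear protein gene tp53inp1, whose product promotes cell death and autophagy, had 52.9, 55.8, 55.0 and 52.8 FPKM in larvae at 300 µg/L uranyl nitrate, against 44.4, 42.5, 34.1 and 43.2 FPKM at 30 µg/L. The other groups had 48.0, 48.9, 44.0 and 53.5 FPKM in the mixture larvae, 39.8, 45.8, 48.8 and 41.3 in vehicle larvae, 46.4, 51.2, 38.5 and 53.04 at 1 µM arsenite and 52.9, 49.5, 50.0 and 44.6 at 10 µM arsenite. The 4 libraries at 300 µg/L lay close together and above every library at 30 µg/L and of vehicle larvae, with 1 library each of the mixture and of both arsenite groups within their range. It rose at 300 µg/L against 30 µg/L (log2 fold change 0.40, SE 0.0917, adjusted p 0.0151, limma), and its difference from vehicle was not called.

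The antiproliferative gene btg2 had 44.6, 48.7, 38.9 and 49.4 FPKM in larvae at 300 µg/L uranyl nitrate, against 30.7, 35.5, 25.3 and 30.8 FPKM at 30 µg/L. The other groups had 35.3, 33.4, 33.1 and 39.8 FPKM in the mixture larvae, 31.1, 31.1, 29.4 and 23.1 in vehicle larvae, 38.6, 58.0, 26.6 and 50.5 at 1 µM arsenite and 43.1, 32.0, 41.7 and 32.0 at 10 µM arsenite. The libraries at 300 µg/L were all above those at 30 µg/L and of vehicle larvae, and the highest value of all came from 1 µM arsenite, where the libraries were far apart. It rose at 300 µg/L against 30 µg/L (log2 fold change 0.56, SE 0.169, adjusted p 0.0492, limma), and the difference of 300 µg/L from vehicle did not pass (0.65, adjusted p 0.0511, limma).

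**Figure D2:**
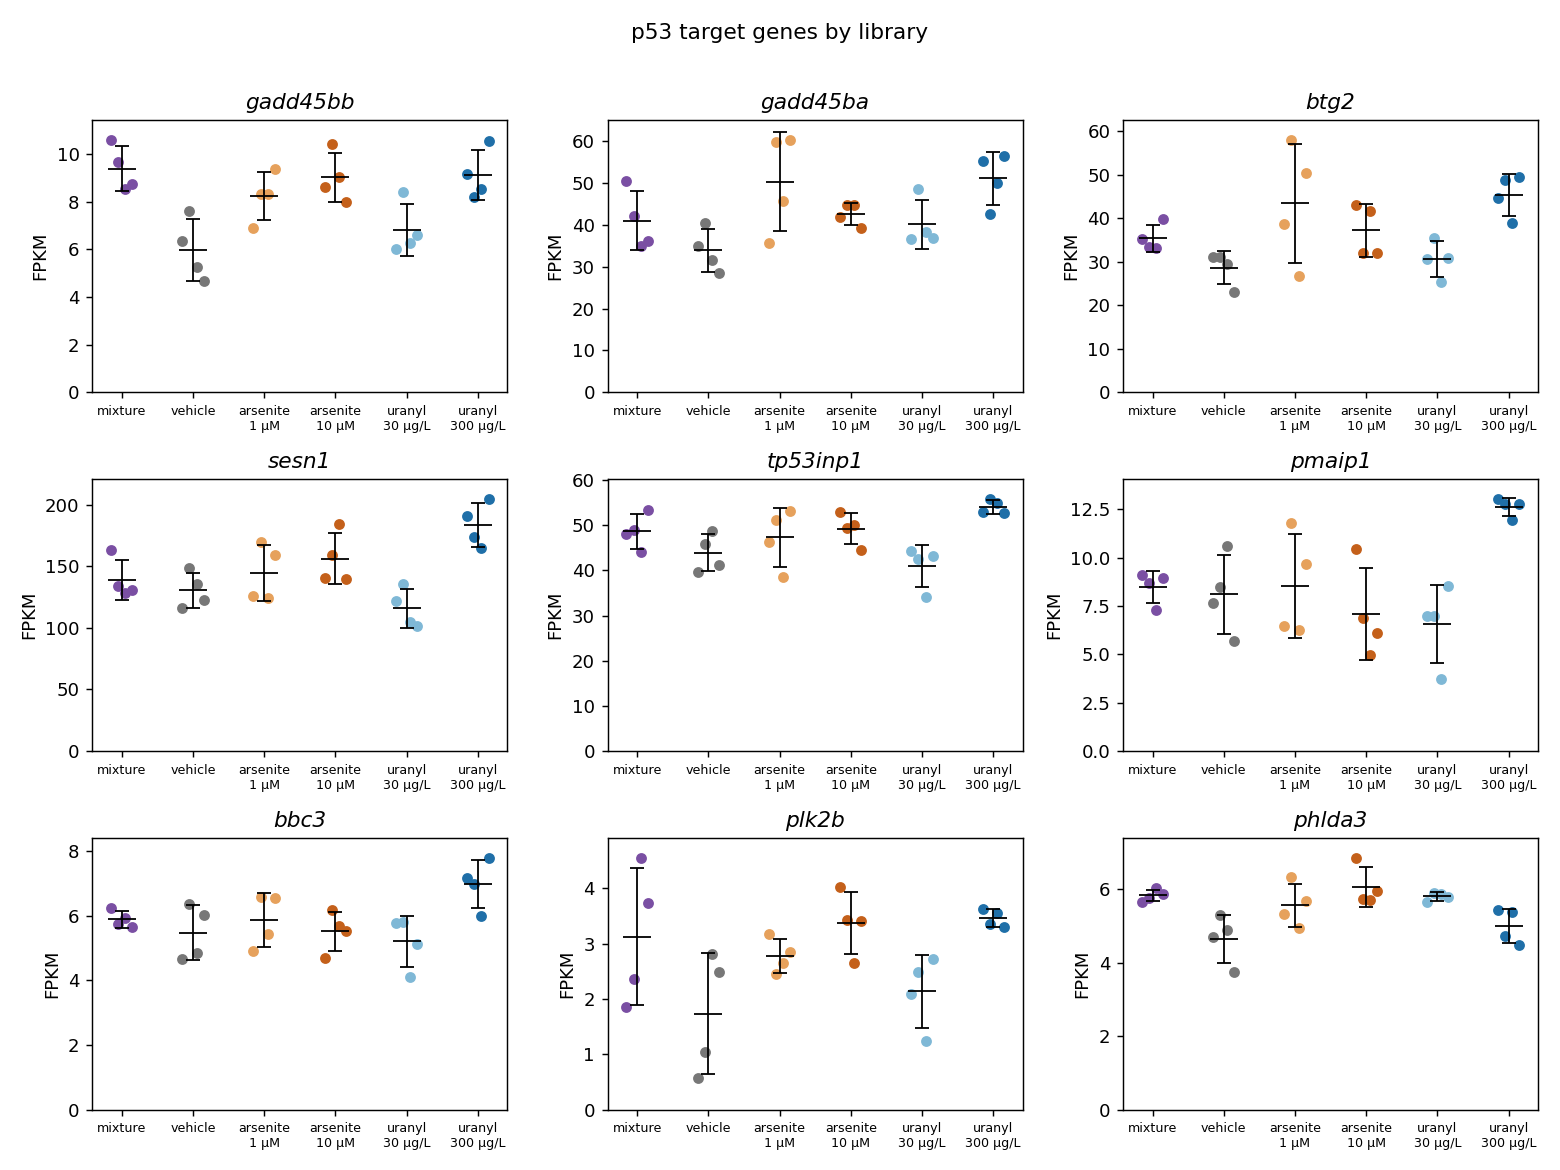
Each point is the FPKM of 1 library (a pool of 10 larvae) for 9 p53 targets, with the mean and SD of 4 libraries per group in black. All libraries at 300 µg/L uranyl nitrate lie above all libraries at 30 µg/L for sesn1, pmaip1, bbc3, tp53inp1 and btg2. The same holds for plk2b, and all lie below for phlda3, both not called. In vehicle larvae, gadd45bb lies below the 10 µM arsenite, mixture and 300 µg/L libraries.

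The direction was not shared by the whole group of p53 targets. Of the 18, 9 were above 0 and 9 below 0 at 300 against 30 µg/L, with a median log2 fold change of 0.03, where the median of all genes was -0.00. Among those not called, plk2b, gadd45bb and gadd45ba had positive differences of 0.53 (adjusted p 0.180), 0.37 (0.0651) and 0.34 (0.175). The feedback gene mdm2, the arrest gene cdkn1a and the death receptor gene fas had negative differences of -0.24 (adjusted p 0.0706), -0.31 (0.183) and -0.38 (0.213), also not called. Among the uncalled p53 targets, all libraries at 300 µg/L were above those at 30 µg/L for plk2b. They were all below for mdm2, phlda3 and plk3. The share of all genes without such overlap is not given here.

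**Figure D3:**
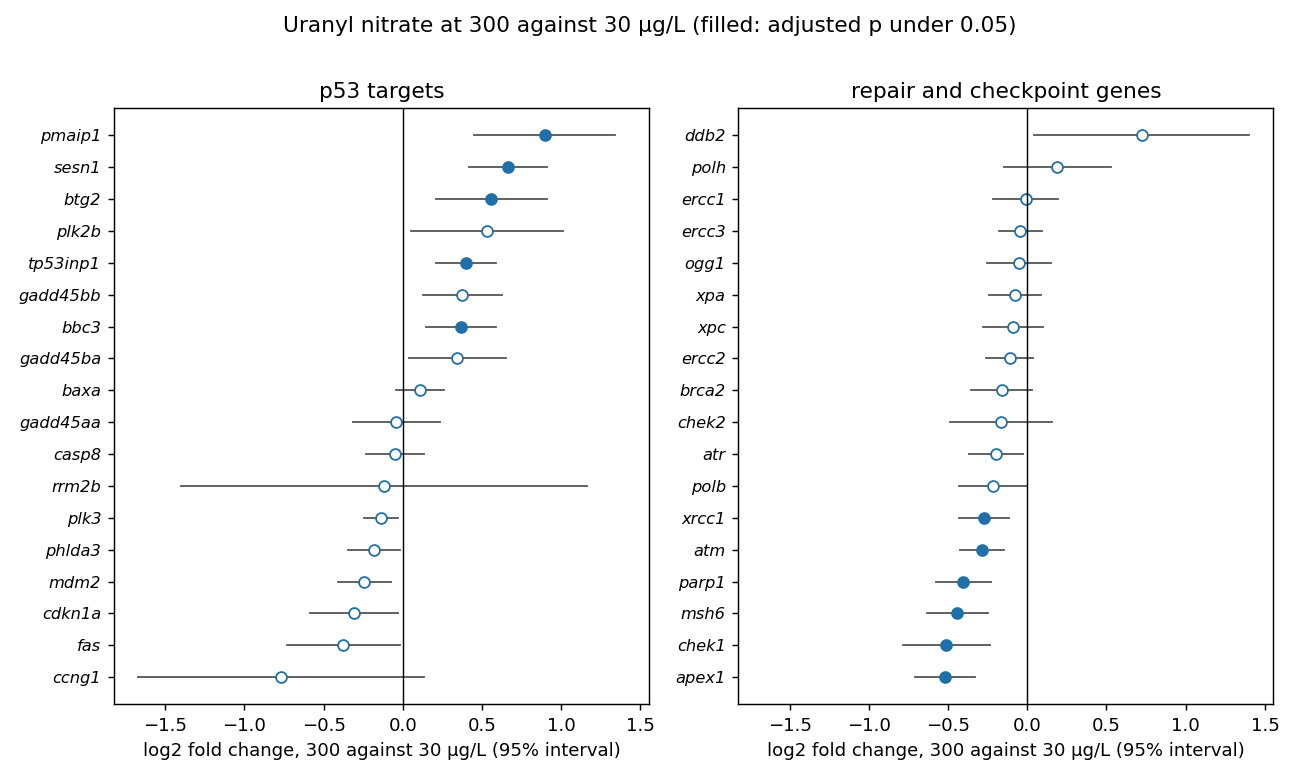
Log2 fold change of each gene, on the log2(FPKM + 1) scale, at 300 against 30 µg/L uranyl nitrate, n = 4 libraries per dose. Lines are 95% intervals from limma, not adjusted for the number of genes, and points are filled where the adjusted p was under 0.05. The called p53 targets run from bbc3 at 0.37 to pmaip1 at 0.90, and the called repair and checkpoint genes from apex1 at -0.52 to xrcc1 at -0.27.

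Among the repair genes, base excision repair held 3 of the 6 genes that fell at 300 against 30 µg/L. The gene apex1 encodes the endonuclease that cuts the DNA strand where a base has been removed. It had 23.4, 22.7, 22.7 and 22.0 FPKM in larvae at 300 µg/L uranyl nitrate, against 31.1, 32.2, 34.5 and 34.0 FPKM at 30 µg/L. The other groups had 24.9, 27.1, 28.7 and 29.3 FPKM in the mixture larvae, 29.9, 25.4, 29.3 and 28.5 in vehicle larvae, 34.8, 27.7, 33.1 and 24.8 at 1 µM arsenite and 32.5, 23.3, 28.5 and 27.9 at 10 µM arsenite. The libraries at 300 µg/L lay close together and below all others but 1 at 10 µM arsenite, and those at 30 µg/L were above all vehicle libraries. It fell at 300 µg/L against 30 µg/L (log2 fold change -0.52, SE 0.0917, adjusted p 0.00486, limma), while its difference from vehicle was not called (-0.30, adjusted p 0.0901).

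The gene parp1 encodes the enzyme that detects strand breaks and builds poly(ADP-ribose) chains there. It had 11.1, 12.4, 12.5 and 11.1 FPKM in larvae at 300 µg/L uranyl nitrate, against 15.3, 15.7, 16.1 and 16.3 FPKM at 30 µg/L. The other groups had 13.3, 14.7, 17.5 and 13.3 FPKM in the mixture larvae, 15.7, 14.2, 15.3 and 16.6 in vehicle larvae, 16.2, 13.5, 15.1 and 12.5 at 1 µM arsenite and 16.9, 14.2, 14.9 and 13.5 at 10 µM arsenite. The libraries at 300 µg/L were the lowest 4 of all 24. It fell against 30 µg/L (log2 fold change -0.40, SE 0.0829, adjusted p 0.00939, limma) and against vehicle (log2 fold change -0.37, SE 0.0829, adjusted p 0.0283, limma), and it was the only one of the 18 repair and checkpoint genes called against vehicle in any exposed group.

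The scaffold protein gene xrcc1, which gathers the enzymes that close single-strand breaks, had 8.14, 7.53, 7.78 and 8.27 FPKM in larvae at 300 µg/L uranyl nitrate, against 8.93, 10.8, 10.8 and 8.81 FPKM at 30 µg/L. The other groups had 7.97, 8.17, 8.35 and 7.81 FPKM in the mixture larvae, 8.51, 9.22, 9.27 and 8.59 in vehicle larvae, 10.2, 9.003, 9.29 and 9.65 at 1 µM arsenite and 10.8, 9.42, 8.31 and 7.91 at 10 µM arsenite. The uranyl nitrate groups did not overlap, and the mixture libraries lay with those at 300 µg/L, all below vehicle. It fell at 300 µg/L against 30 µg/L (log2 fold change -0.27, SE 0.0757, adjusted p 0.0340, limma), and the difference between mixture and vehicle was -0.12 (adjusted p 0.607), not called.

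The mismatch recognition gene msh6 had 8.40, 7.60, 8.17 and 7.003 FPKM in larvae at 300 µg/L uranyl nitrate, against 9.38, 10.8, 11.8 and 11.9 FPKM at 30 µg/L. The other groups had 8.55, 10.8, 11.0 and 9.12 FPKM in the mixture larvae, 10.4, 9.05, 9.81 and 10.5 in vehicle larvae, 10.8, 10.2, 9.89 and 9.28 at 1 µM arsenite and 12.3, 8.92, 9.19 and 9.75 at 10 µM arsenite. All libraries at 300 µg/L were below every library of the other groups, the mixture and both arsenite doses included. It fell at 300 µg/L against 30 µg/L (log2 fold change -0.44, SE 0.0931, adjusted p 0.0104, limma), and against vehicle its difference of -0.32 had an adjusted p of 0.0792.

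Both checkpoint kinase genes that fell were expressed at a low level. The apical kinase gene atm, activated by double-strand breaks, had 1.61, 1.61, 1.64 and 1.58 FPKM in larvae at 300 µg/L uranyl nitrate, against 2.19, 1.97, 2.42 and 2.16 FPKM at 30 µg/L. The other groups had 1.59, 1.76, 1.79 and 1.93 FPKM in the mixture larvae, 1.89, 2.03, 2.06 and 2.52 in vehicle larvae, 2.15, 1.99, 2.32 and 2.36 at 1 µM arsenite and 2.17, 1.92, 1.90 and 1.98 at 10 µM arsenite. The 300 µg/L libraries lay within a very narrow range below both the 30 µg/L and the vehicle libraries. It fell against 30 µg/L (log2 fold change -0.29, SE 0.0668, adjusted p 0.0157, limma), and the difference from vehicle narrowly missed the threshold (-0.26, adjusted p 0.0517).

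The kinase gene chek1, which acts below atr when replication stalls, had 1.98, 1.61, 1.58 and 1.20 FPKM in larvae at 300 µg/L uranyl nitrate, against 2.48, 2.48, 3.03 and 2.71 FPKM at 30 µg/L. The other groups had 2.35, 2.12, 2.73 and 2.15 FPKM in the mixture larvae, 1.96, 2.27, 2.42 and 2.92 in vehicle larvae, 3.09, 1.77, 3.03 and 1.91 at 1 µM arsenite and 2.81, 1.75, 2.21 and 2.65 at 10 µM arsenite. No library at 300 µg/L reached the lowest at 30 µg/L, but the highest at 300 µg/L was just above the lowest of vehicle larvae. The 1 µM arsenite libraries split into a high and a low pair. It fell at 300 µg/L against 30 µg/L (log2 fold change -0.51, SE 0.131, adjusted p 0.0245, limma).

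**Figure D4:**
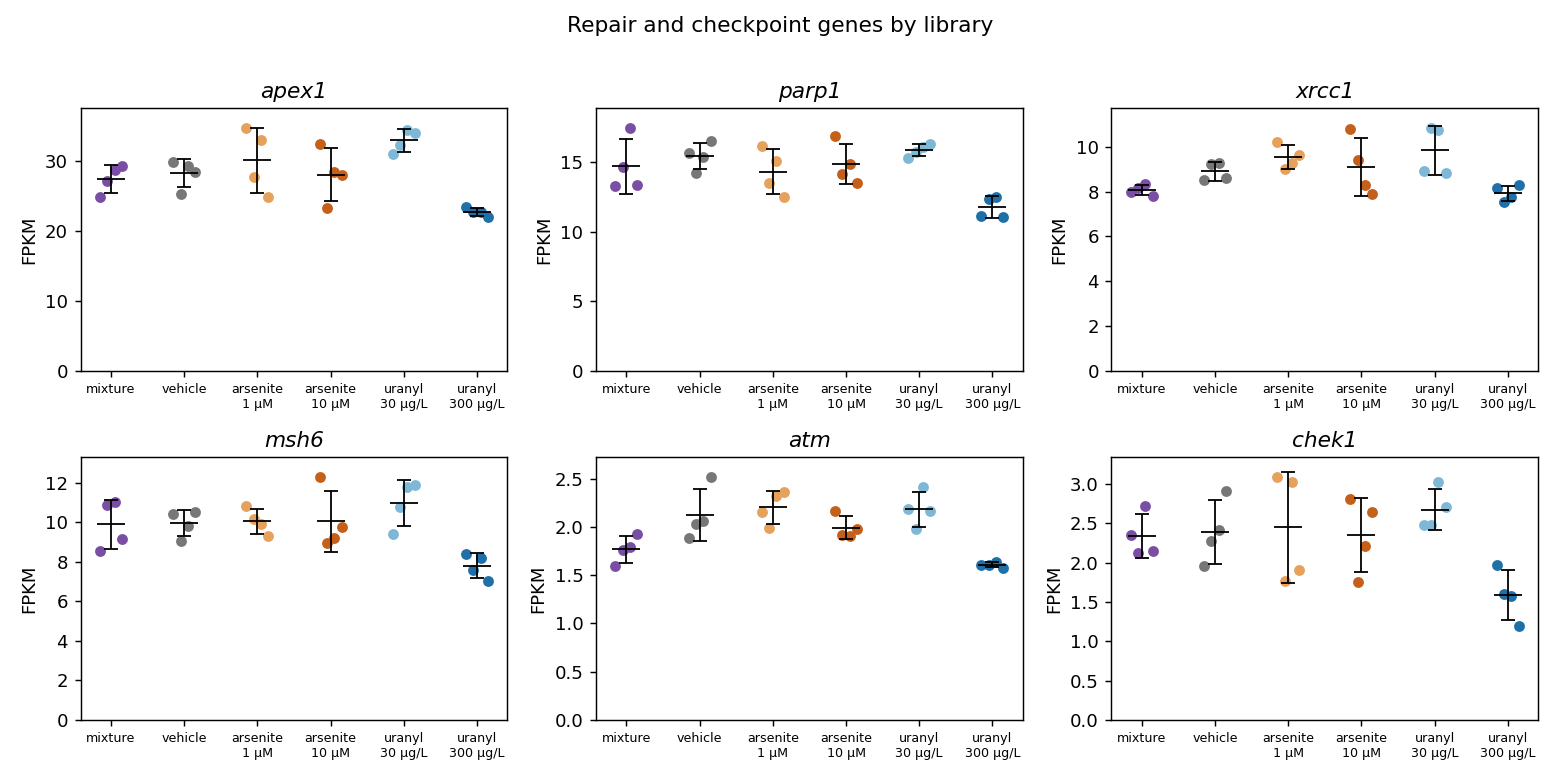
Each point is the FPKM of 1 library for the 6 repair and checkpoint genes that fell at 300 against 30 µg/L uranyl nitrate, with the mean and SD of 4 libraries per group in black. The libraries at 300 µg/L are the lowest 4 of all 24 for parp1 and msh6. They lie below the 30 µg/L libraries in every panel, but the genes were picked by their call in that comparison.

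Most of the 18 repair and checkpoint genes had differences below 0. The counts and medians that follow include the called genes, 6 at 300 against 30 µg/L and 1 against vehicle. At 300 against 30 µg/L, 16 of the 18 genes were below 0, with a median log2 fold change of -0.16, and against vehicle 16 of the 18 were below 0, with a median of -0.15. The medians of all genes tested were -0.00 in both. These comparisons share the libraries at 300 µg/L, so they are not independent. Markers of proliferating cells moved in the same direction. Of 10 such markers, 9 were called lower at 300 against 30 µg/L and 6 against vehicle, among them pcna and the replication helicase genes mcm2, mcm3 and mcm5. Their summed level ran from 140.1 to 161 FPKM at 300 µg/L, against 219 to 263 FPKM at 30 µg/L, and was 187 to 249 FPKM in vehicle larvae. Of these markers, 0 were at 0 in all libraries. The liver marker apoa2 and the skin marker krt4 were also called lower at 300 against 30 µg/L. The summed level of 3 liver markers was 2658 to 3595 FPKM at 300 µg/L, against 3517 to 4580 FPKM at 30 µg/L, and that of 2 skin markers 1047 to 1333 FPKM at 300 µg/L, against 1352 to 1746 FPKM at 30 µg/L. Most of each sum came from apoa2 or krt4, with means of 2305 and 1066 FPKM at 300 µg/L. Mean sums were also lower at 300 µg/L for photoreceptors, red cells, and neutrophils and macrophages. They were higher for exocrine pancreas (2652 against 2299 FPKM), muscle (1809 against 1777) and neurons (273 against 262). The part of these cell types in the differences of the repair genes was not tested.

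The count at 300 against 30 µg/L rests partly on single libraries. It was 4 genes (sesn1, apex1, parp1 and msh6) without replicate 3 at 30 µg/L, 6 without replicate 4 at 300 µg/L and 7 without replicate 2 at 300 µg/L, in fits that called 2.05%, 2.29% and 3.48% of all genes tested. Without replicate 3 at 30 µg/L the adjusted p was 0.071 for pmaip1, 0.0637 for tp53inp1, 0.155 for bbc3 and btg2, 0.0628 for atm, 0.117 for xrcc1 and 0.0799 for chek1. Without replicate 4 at 300 µg/L it was 0.0517 for pmaip1, 0.128 for bbc3, 0.129 for btg2, 0.0617 for xrcc1 and 0.0883 for chek1, and without replicate 2 at 300 µg/L 0.0832 for bbc3, 0.115 for btg2, 0.0902 for xrcc1 and 0.0525 for chek1. Leaving out replicate 1 at 300 µg/L ended the calls of bbc3 (0.0929), btg2 (0.0924) and xrcc1 (0.0613), and leaving out replicate 4 at 30 µg/L those of bbc3 (0.0879), btg2 (0.0968) and chek1 (0.0579). The call of btg2 was also lost without replicate 1 (0.0811) or 2 (0.0523) at 30 µg/L, and that of xrcc1 without replicate 2 at 30 µg/L (0.107) or replicate 3 at 300 µg/L (0.0634). The calls of sesn1, apex1, parp1 and msh6 held in all 8 fits that each left out 1 library.

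Against vehicle, larvae at 300 µg/L uranyl nitrate had 4 of the 36 genes called (11.1%), against 1.77% of all genes tested. The genes gadd45bb, gadd45ba and sesn1 rose, where 0.877% of all genes were called higher, and parp1 fell, where 0.895% were called lower. Of the 11 genes called at 300 against 30 µg/L, only sesn1 and parp1 were thus also called against vehicle. An unadjusted p under 0.05 was found for 17 of the 36 genes, where 3754 of the 22682 genes tested (16.6%) had one.

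The pair gadd45ba and gadd45bb are copies of 1 ancestral gene for a stress sensor that binds stress kinases and cell cycle proteins. The gene gadd45bb had 9.19, 8.20, 8.55 and 10.6 FPKM in larvae at 300 µg/L uranyl nitrate, against 6.02, 8.42, 6.28 and 6.59 FPKM at 30 µg/L. The other groups had 10.6, 9.67, 8.52 and 8.75 FPKM in the mixture larvae, 6.34, 7.63, 5.27 and 4.67 in vehicle larvae, 6.91, 8.34, 8.31 and 9.39 at 1 µM arsenite and 8.62, 10.4, 9.05 and 8.01 at 10 µM arsenite. Vehicle libraries were below every library of the mixture, of 10 µM arsenite and of 300 µg/L uranyl nitrate, and overlapped those at 1 µM arsenite and 30 µg/L uranyl nitrate. It rose against vehicle at 300 µg/L uranyl nitrate (log2 fold change 0.55, SE 0.120, adjusted p 0.0254, limma), at 10 µM arsenite (log2 fold change 0.54, SE 0.120, adjusted p 0.0360, limma) and in the mixture (log2 fold change 0.59, SE 0.120, adjusted p 0.0263, limma). These 3 comparisons share the same 4 vehicle libraries, so a low level in those libraries enters each of them.

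The gene gadd45ba had 55.3, 42.7, 50.0 and 56.6 FPKM in larvae at 300 µg/L uranyl nitrate, against 36.6, 48.7, 38.4 and 36.8 FPKM at 30 µg/L. The other groups had 50.5, 42.1, 35.1 and 36.2 FPKM in the mixture larvae, 34.9, 40.5, 31.7 and 28.6 in vehicle larvae, 35.7, 59.7, 45.8 and 60.3 at 1 µM arsenite and 41.8, 44.7, 44.8 and 39.2 at 10 µM arsenite. All libraries at 300 µg/L were above the highest vehicle library, 1 of them only just, and the highest values came from 1 µM arsenite, where 1 library was at the vehicle level. It rose at 300 µg/L against vehicle (log2 fold change 0.58, SE 0.147, adjusted p 0.0457, limma). At 1 µM arsenite its difference was nearly as large but not called (0.54, adjusted p 0.218). How reads shared between close gene copies were assigned is not given in the sources used here, so the split between this pair is uncertain.

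Each of these 4 calls was lost in at least 5 of the 8 fits that left out 1 library. At 300 µg/L, 0 of the 36 genes were called without vehicle replicate 1, 3 or 4 or without replicate 1 or 4 at 300 µg/L, 1 without replicate 2 at 300 µg/L (gadd45bb), 3 without its replicate 3, and 7 without vehicle replicate 2, with apex1, atm and btg2 added. The share of all genes called was 0.278% to 0.679% in the 5 fits with 0 of the 36, 0.608% without replicate 2 at 300 µg/L, 1.46% without its replicate 3 and 3.39% without vehicle replicate 2. The highest adjusted p among these fits was 0.131 for sesn1 (without vehicle replicate 1), and 0.107 for gadd45bb, 0.151 for gadd45ba and 0.11 for parp1 (each without vehicle replicate 4).

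Arsenite at 10 µM moved 1 of the 36 genes past the threshold, gadd45bb, where 0.727% of all genes tested were called. An unadjusted p under 0.05 was found for 9 of the 36 genes, where 2346 of the 22682 genes tested (10.3%) had one. Those with the next smallest p-values were phlda3 and plk2b. The gene phlda3, whose product holds back the survival kinase Akt, had 6.86, 5.73, 5.72 and 5.94 FPKM at 10 µM arsenite, against 4.70, 5.30, 4.88 and 3.75 FPKM in vehicle larvae. The remaining groups had 5.66, 5.77, 6.03 and 5.87 FPKM in the mixture, 5.32, 6.32, 4.95 and 5.69 at 1 µM arsenite, 5.65, 5.91, 5.87 and 5.79 at 30 µg/L and 5.43, 4.72, 5.38 and 4.49 at 300 µg/L uranyl nitrate. The libraries at 10 µM arsenite, of the mixture and at 30 µg/L uranyl nitrate were all above the highest vehicle library, yet none of these differences passed. The log2 fold change was 0.33 at 10 µM arsenite (adjusted p 0.0584), 0.28 in the mixture (0.147) and 0.27 at 30 µg/L uranyl nitrate (0.392, limma).

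The polo-like kinase gene plk2b, a stress kinase of the cell cycle, was low and uneven. It had 4.02, 3.43, 2.66 and 3.42 FPKM at 10 µM arsenite, against 0.574, 1.04, 2.82 and 2.49 FPKM in vehicle larvae. The remaining groups had 1.86, 2.36, 4.55 and 3.74 FPKM in the mixture, 3.17, 2.45, 2.65 and 2.86 at 1 µM arsenite, 2.09, 2.50, 1.24 and 2.73 at 30 µg/L and 3.63, 3.35, 3.56 and 3.30 at 300 µg/L uranyl nitrate. Vehicle libraries fell into a low and a high pair, and the libraries at 300 µg/L were all above both. The log2 fold change was 0.77 at 10 µM arsenite (adjusted p 0.158), 0.80 at 300 µg/L uranyl nitrate (0.0744) and 0.64 in the mixture (0.287, limma), none of them called.

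At 1 µM arsenite 0 of the 36 genes were called by limma, where 0.132% of all genes tested were, 7 had an unadjusted p under 0.05, where 6.74% of all genes did, and limma voom on the recovered reads also called 0. The smallest p-values belonged to plk3, gadd45ba and gadd45bb. The related polo-like kinase gene plk3 had 21.7, 22.4, 21.0 and 22.0 FPKM at 1 µM arsenite, against 20.4, 18.03, 17.0 and 19.1 FPKM in vehicle larvae. The remaining groups had 18.5, 22.0, 20.2 and 21.0 FPKM in the mixture, 22.4, 20.9, 20.6 and 20.1 at 10 µM arsenite, 20.8, 20.5, 20.7 and 20.1 at 30 µg/L and 18.2, 18.3, 18.7 and 18.9 at 300 µg/L uranyl nitrate. All libraries at 1 µM were above all vehicle libraries, with a log2 fold change of 0.22 (adjusted p 0.121, limma) that was not called. For gadd45bb the difference was 0.42 (adjusted p 0.267). Without replicate 3 at 1 µM arsenite, btg2 was called higher than vehicle (log2 fold change 0.74, adjusted p 0.0228, limma). In that fit 52 of all 22682 genes were called higher and 2 lower.

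At 30 µg/L uranyl nitrate 0 of the 36 genes were called against vehicle by limma, as were 0 of all genes tested (0%). There, 5 of the 36 had an unadjusted p under 0.05, where 7.14% of all genes did, and limma voom called 0. The genes with the smallest p-values were phlda3, mdm2 and plk3, whose difference was 0.13 (adjusted p 0.598).

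In the mixture 1 of the 36 genes was called against vehicle, gadd45bb, where 0.406% of all genes tested were, and 5 had an unadjusted p under 0.05, where 10.7% of all genes did. Against 1 µM arsenite alone, limma called 0 of the 36 genes (0.00441% of all genes), with 4 at an unadjusted p under 0.05 (7.93% of all genes). The nucleotide excision helicase gene ercc2 came nearest (-0.27, adjusted p 0.340), and all its mixture libraries were below those at 1 µM. The same held for xrcc1, atm and ogg1. Against 30 µg/L uranyl nitrate alone, limma called 0 (0.238% of all genes), with 10 at an unadjusted p under 0.05 (11.2% of all genes). The mixture libraries were all above those at 30 µg/L only for gadd45bb (0.41, adjusted p 0.186). They were all below for xrcc1 (-0.25, 0.198), mdm2, apex1, atm, ercc2 and xpc. What share of all genes had no overlap in these comparisons is not given here. The departure of the mixture from the sum of both single exposures on the log2 scale was called for 0 of the 36 genes (0.0353% of all genes), with 7 at an unadjusted p under 0.05 (7.33% of all genes), and ercc2 came nearest (-0.37, adjusted p 0.317). Between 10 and 1 µM arsenite limma called 0 (0.176% of all genes), with 1 at an unadjusted p under 0.05 (6.11% of all genes), again ercc2 (-0.19, adjusted p 0.720). Limma voom called 0 in each of these 4 comparisons.

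The call of gadd45bb against vehicle in the arsenite and mixture groups also depended on single libraries. At 10 µM arsenite it was lost without replicate 1 (adjusted p 0.0628), 2 (0.141) or 3 (0.0932) of that group or vehicle replicate 1 (0.0538), 3 (0.14) or 4 (0.136), and without vehicle replicate 2 phlda3 was called as well (0.0265). In the mixture it was lost without replicate 1 (0.101) or 2 (0.0776) of the mixture or vehicle replicate 1 (0.0507), 3 (0.0602) or 4 (0.151). In the fits that lost it at 10 µM arsenite, 89 to 107 of all 22682 genes were called higher and 13 to 20 lower. All libraries together gave 135 and 30 there. For the mixture, the fits that lost it called 37 to 75 higher and 9 to 71 lower, against 68 and 24 with all libraries.

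The p53 targets used most widely as reporters of p53 activity, mdm2, cdkn1a, ccng1 and ddb2, were not called in any of the 10 comparisons. The ligase gene mdm2 had 11.9, 13.3, 14.0 and 14.7 FPKM in larvae at 300 µg/L uranyl nitrate, against 15.7, 15.6, 16.7 and 16.4 FPKM at 30 µg/L. The other groups had 14.0, 13.3, 13.8 and 14.8 FPKM in the mixture larvae, 14.8, 12.1, 14.5 and 14.0 in vehicle larvae, 15.0, 12.9, 12.3 and 14.6 at 1 µM arsenite and 16.7, 13.9, 14.7 and 12.4 at 10 µM arsenite. The libraries at 30 µg/L were above all vehicle libraries and above all libraries at 300 µg/L, and the other groups overlapped vehicle. The 95% interval of its log2 fold change against vehicle was -0.18 to 0.15 at 1 µM arsenite, -0.11 to 0.22 at 10 µM arsenite, 0.04 to 0.37 at 30 µg/L uranyl nitrate (0.21, adjusted p 0.597), -0.20 to 0.13 at 300 µg/L and -0.15 to 0.18 in the mixture. These intervals and those below are not adjusted for the number of genes tested, so they can exclude 0 where the adjusted p does not pass.

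The gene cdkn1a encodes an inhibitor of cyclin-dependent kinases, the main arrest protein below p53. It had 8.91, 12.4, 10.5 and 9.37 FPKM in larvae at 300 µg/L uranyl nitrate, against 12.2, 12.1, 14.0 and 13.4 FPKM at 30 µg/L. The other groups had 11.4, 13.6, 12.6 and 12.4 FPKM in the mixture larvae, 17.4, 10.0, 12.5 and 13.7 in vehicle larvae, 14.2, 12.3, 11.4 and 12.5 at 1 µM arsenite and 15.9, 10.6, 10.0 and 11.7 at 10 µM arsenite. The groups overlapped, with the highest library in vehicle larvae and the lowest at 300 µg/L. The log2 fold change at 300 µg/L against vehicle was -0.33 (95% interval -0.61 to -0.06, adjusted p 0.202), and the other 4 exposed groups differed from vehicle by -0.13 at 10 µM arsenite, -0.07 in the mixture, -0.06 at 1 µM arsenite and -0.03 at 30 µg/L uranyl nitrate.

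The cyclin G1 gene ccng1 varied widely within groups, with a coefficient of variation of 46.8%. It had 22.4, 73.8, 45.3 and 30.1 FPKM in larvae at 300 µg/L uranyl nitrate, against 33.3, 72.8, 155 and 52.7 FPKM at 30 µg/L. The other groups had 34.6, 30.1, 39.2 and 29.6 FPKM in the mixture larvae, 64.8, 27.7, 26.1 and 25.6 in vehicle larvae, 27.7, 63.2, 30.6 and 44.5 at 1 µM arsenite and 32.9, 26.3, 56.2 and 86.9 at 10 µM arsenite. High and low libraries occurred in nearly every group, and the mixture group was the most even. Its largest difference from vehicle was at 30 µg/L uranyl nitrate, where the 95% interval was wide (0.99, interval 0.09 to 1.89, adjusted p 0.653).

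The gene ddb2, which is a p53 target in mammals and recognises bulky lesions for nucleotide excision repair, had 27.4, 16.01, 16.9 and 12.3 FPKM in larvae at 300 µg/L uranyl nitrate, against 17.7, 4.97, 9.40 and 12.4 FPKM at 30 µg/L. The other groups had 12.6, 17.2, 10.5 and 19.3 FPKM in the mixture larvae, 8.44, 14.9, 19.2 and 18.4 in vehicle larvae, 17.9, 17.5, 16.3 and 14.3 at 1 µM arsenite and 21.0, 21.4, 16.1 and 7.84 at 10 µM arsenite. It too varied within groups and no group stood clear of another. At 300 against 30 µg/L the log2 fold change was 0.72 (interval 0.04 to 1.40, adjusted p 0.206).

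**Figure D5:**
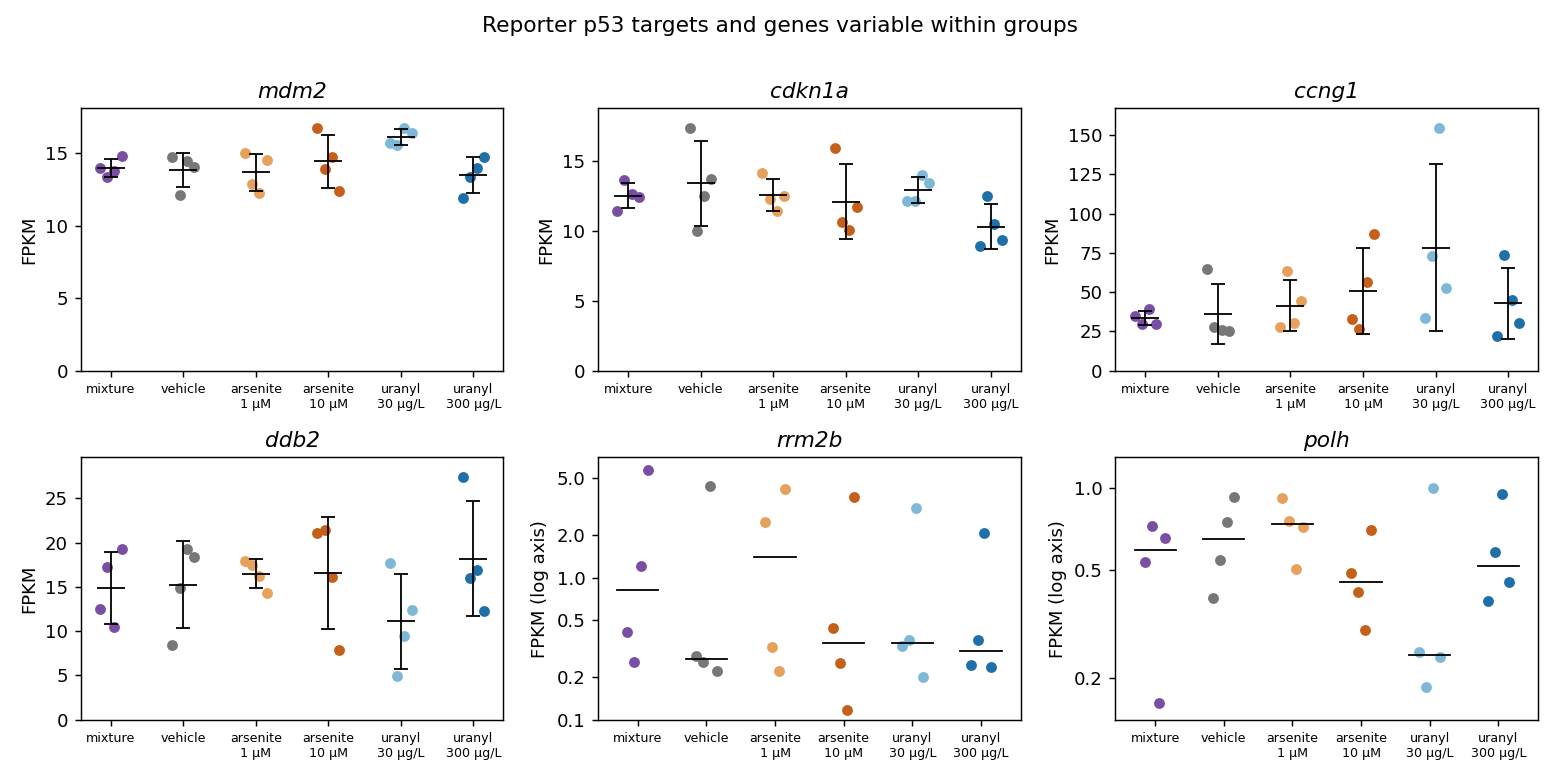
Each point is the FPKM of 1 library for the reporter genes mdm2, cdkn1a, ccng1 and ddb2, with the mean and SD of 4 libraries in black, and for rrm2b and polh on a log axis with the group median as a line. Within the groups ccng1 spreads from 33.3 to 155 FPKM at 30 µg/L uranyl nitrate, and rrm2b falls into a high and a low set of libraries.

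The remaining p53 targets were not called in any comparison. The ribonucleotide reductase gene rrm2b, which supplies nucleotides for repair, was at 1.21 to 5.66 FPKM (54 to 280 reads) in 8 libraries and at 0.117 to 0.443 FPKM (6 to 21 reads) in the other 16. Each group held both kinds. The 8 high libraries were replicates 3 and 4 of the mixture, replicate 3 of vehicle, replicates 1 and 4 at 1 µM arsenite, replicate 4 at 10 µM arsenite and replicate 3 at both 30 and 300 µg/L uranyl nitrate. Group means of rrm2b were 1.89 FPKM in the mixture larvae, 1.28 in vehicle larvae, 1.79 and 1.12 at 1 and 10 µM arsenite, and 0.993 and 0.727 at 30 and 300 µg/L uranyl nitrate (SDs 0.895 to 2.55, n = 4). The mixture and 1 µM arsenite, the groups with 2 high libraries each, had the highest means.

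The third gadd45 gene, gadd45aa, averaged 8.64 FPKM in the mixture larvae, 7.67 in vehicle larvae, 7.98 and 8.77 at 1 and 10 µM arsenite, and 7.76 and 7.57 at 30 and 300 µg/L uranyl nitrate (SDs 0.512 to 1.48, n = 4). The pore-forming death gene baxa averaged 15.5 FPKM in the mixture larvae, 15.2 in vehicle larvae, 15.3 and 15.2 at 1 and 10 µM arsenite, and 15.1 and 16.4 at 30 and 300 µg/L uranyl nitrate (SDs 0.450 to 1.72, n = 4). The death receptor gene fas averaged 1.46 FPKM in the mixture larvae, 1.301 in vehicle larvae, 1.68 and 1.38 at 1 and 10 µM arsenite, and 1.85 and 1.18 at 30 and 300 µg/L uranyl nitrate (SDs 0.220 to 0.705, n = 4). Of these 3, baxa was the steadiest and fas the most uneven. The initiator caspase gene casp8, which acts below that receptor, averaged 5.14 FPKM in the mixture larvae, 5.03 in vehicle larvae, 5.37 and 5.13 at 1 and 10 µM arsenite, and 4.82 and 4.62 at 30 and 300 µg/L uranyl nitrate (SDs 0.297 to 0.762, n = 4).

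Among the genes of nucleotide excision repair, none of the 6 was called in any comparison. Of 23 other genes of that pathway, described further below, 10 were called at 300 against 30 µg/L, where 6.65% of all genes were. The lesion sensor gene xpc averaged 8.53 FPKM in the mixture larvae, 9.44 in vehicle larvae, 9.96 and 10.9 at 1 and 10 µM arsenite, and 10.6 and 9.90 at 30 and 300 µg/L uranyl nitrate (SDs 0.625 to 1.26, n = 4). The scaffold gene xpa averaged 4.21 FPKM in the mixture larvae, 4.10 in vehicle larvae, 4.21 and 4.35 at 1 and 10 µM arsenite, and 4.30 and 4.02 at 30 and 300 µg/L uranyl nitrate (SDs 0.322 to 0.424, n = 4). The nuclease subunit gene ercc1 averaged 6.71 FPKM in the mixture larvae, 6.80 in vehicle larvae, 6.74 and 7.13 at 1 and 10 µM arsenite, and 6.64 and 6.61 at 30 and 300 µg/L uranyl nitrate (SDs 0.330 to 0.992, n = 4). These group means lay within a narrow band for xpa and ercc1, and xpc was lowest in the mixture. The helicase genes of the transcription factor TFIIH, ercc2 and ercc3, were expressed at a similar level. The first, ercc2, averaged 6.22 FPKM in the mixture larvae, 6.83 in vehicle larvae, 7.72 and 6.68 at 1 and 10 µM arsenite, and 7.37 and 6.75 at 30 and 300 µg/L uranyl nitrate (SDs 0.199 to 0.784, n = 4). The second, ercc3, averaged 7.97 FPKM in the mixture larvae, 8.75 in vehicle larvae, 8.03 and 7.76 at 1 and 10 µM arsenite, and 8.08 and 7.82 at 30 and 300 µg/L uranyl nitrate (SDs 0.0417 to 1.06, n = 4), and its mean was highest in vehicle larvae.

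Of the base excision genes that were not called, ogg1, which removes oxidised guanine, averaged 3.02 FPKM in the mixture larvae, 3.43 in vehicle larvae, 3.57 and 3.68 at 1 and 10 µM arsenite, and 3.46 and 3.33 at 30 and 300 µg/L uranyl nitrate (SDs 0.274 to 0.681, n = 4). The gap-filling polymerase gene polb averaged 8.61 FPKM in the mixture larvae, 9.03 in vehicle larvae, 8.89 and 8.59 at 1 and 10 µM arsenite, and 9.06 and 7.69 at 30 and 300 µg/L uranyl nitrate (SDs 0.557 to 1.66, n = 4). The lesion bypass polymerase gene polh averaged 0.518 FPKM in the mixture larvae, 0.655 in vehicle larvae, 0.725 and 0.476 at 1 and 10 µM arsenite, and 0.418 and 0.593 at 30 and 300 µg/L uranyl nitrate (SDs 0.168 to 0.389, n = 4), with few reads behind each value. The lowest mean of polb was at 300 µg/L. The replication stress kinase gene atr averaged 1.38 FPKM in the mixture larvae, 1.56 in vehicle larvae, 1.51 and 1.505 at 1 and 10 µM arsenite, and 1.66 and 1.32 at 30 and 300 µg/L uranyl nitrate (SDs 0.106 to 0.269, n = 4). The checkpoint kinase gene chek2, which acts below atm, averaged 1.61 FPKM in the mixture larvae, 1.59 in vehicle larvae, 1.22 and 1.32 at 1 and 10 µM arsenite, and 1.32 and 1.05 at 30 and 300 µg/L uranyl nitrate (SDs 0.0777 to 0.512, n = 4). The homologous recombination gene brca2 averaged 1.38 FPKM in the mixture larvae, 1.49 in vehicle larvae, 1.54 and 1.49 at 1 and 10 µM arsenite, and 1.40 and 1.14 at 30 and 300 µg/L uranyl nitrate (SDs 0.0124 to 0.297, n = 4). All of atr, chek2 and brca2 had their lowest mean at 300 µg/L uranyl nitrate, and none was called there against vehicle (adjusted p 0.425, 0.295 and 0.241, limma).

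A wider list of 155 other genes of the same pathways gave 149 found and 142 tested. At 300 µg/L uranyl nitrate against vehicle, 1 was called higher and 6 lower, where 0.877% and 0.895% of all genes were. The survival gene mcl1b, a relative of bcl2, averaged 136 ± 3.87 FPKM at 300 µg/L, against 102 ± 10.2 FPKM in vehicle larvae (log2 fold change 0.41, adjusted p 0.0104, limma). The gene rpa1 for single-strand binding protein averaged 22.2 ± 0.586 FPKM at 300 µg/L, against 29.1 ± 1.27 FPKM in vehicle larvae (log2 fold change -0.37, adjusted p 0.0177, limma). The break-end tethering gene rad50 averaged 3.78 ± 0.181 FPKM at 300 µg/L, against 4.87 ± 0.516 FPKM in vehicle larvae (log2 fold change -0.29, adjusted p 0.0236, limma). The gene usp1, for the deubiquitinase of crosslink repair, averaged 7.25 ± 0.693 FPKM at 300 µg/L, against 9.70 ± 0.796 FPKM in vehicle larvae (log2 fold change -0.38, adjusted p 0.0258, limma; all means ± SD, n = 4). Also called lower were rpa3 and parp3. At 300 against 30 µg/L, 6 of the 142 genes were called higher and 20 lower, where 2.63% and 4.03% of all genes were. Of these, 4 higher (mcl1b, btg1, mcl1a and bcl2l1) and 2 lower (ppm1da and gtse1) were among 37 other p53 targets and apoptosis genes. Another 2 higher and 18 lower were among 105 other repair and checkpoint genes, whose median log2 fold change was -0.13. Other nucleotide excision repair genes held 1 of the higher and 9 of the lower, out of 23 tested. Other base excision and mismatch repair genes held 1 and 3, out of 25. Break and crosslink repair genes held 0 and 3, out of 34, and checkpoint and bypass genes 0 and 3, out of 23. In the mixture, 0 of the 142 were called against vehicle by limma (0.406% of all genes), with 10 at an unadjusted p under 0.05 (10.7% of all genes). Against 30 µg/L uranyl nitrate alone the excision nuclease gene ercc4 was lower (log2 fold change -0.46, adjusted p 0.00626, limma), where 0.238% of all genes were called. Arsenite at 1 and 10 µM and uranyl nitrate at 30 µg/L each had 0 of the 142 called against vehicle by limma, where 0.132%, 0.727% and 0% of all genes were. They had 14, 10 and 12 of the 142 at an unadjusted p under 0.05, where 6.74%, 10.3% and 7.14% of all genes did. Limma voom on the recovered reads also called 0 of the 142 in these 3 comparisons and in the mixture against vehicle. At 300 µg/L against vehicle, voom called 1 higher and 4 lower and lost rpa3 (adjusted p 0.0688) and parp3 (0.0567), and at 300 against 30 µg/L it called 6 higher and 19 lower. Of all genes, voom called 1.43% and 6.63% there. At 300 µg/L against vehicle, leaving out 1 library at a time gave 0 to 13 of the 142 called by limma. The 0 came without vehicle replicate 4 (0.3% of all genes called) and the 13 without vehicle replicate 2 (3.39%). Without vehicle replicate 4, 34 of the 142 had an unadjusted p under 0.05, where 3138 of 22682 genes did. At 300 against 30 µg/L the count ran from 12 (without replicate 3 at 30 µg/L, 2.05% of all genes) to 24 (without replicate 3 at 300 µg/L, 5.97%).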

How the data were processed

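The 36 genes and the lists of other pathway genes and cell markers were chosen with earlier results of these data known. The libraries hold polyadenylated RNA captured on oligo(dT) beads and primed at random, per the labels' protocols. Per the submitters' processing notes, tools included HISAT2 2.1.0, HTSeq 0.6.1 and DESeq2 1.10.1, with the build GRCz11. The annotation, the strand setting and the treatment of reads shared by several genes are not given in the sources used here. The authors deposited FPKM values for 39974 genes, 1 column per library, and 0 columns were left unused. No batch is given in the labels. Of the gene numbers, 32044 (80.2%) were given a symbol from a RefSeq table of the assembly GRCz12tu, used for names only.

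Read numbers were recovered from the steps of the FPKM values, and 100.0% of the values were whole reads within 0.1 read. The recovered library totals differed from those implied by the values by a relative 3.06e-06 at most.

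Genes with at least 0.5 FPKM in at least 4 of the 24 libraries were tested, 22682 in all. Limma 3.58.1 (R 4.3.3) was fitted to log2(FPKM + 1) in all 24 libraries, as 6 group means with 18 residual degrees of freedom and a variance trend, and p-values were adjusted by Benjamini-Hochberg within each of 10 comparisons, at a threshold of 0.05. Because FPKM are not counts, limma voom on the recovered reads was run only as an alternative, added after the data were seen. The other alternatives changed the pseudocount, filter, scaling, variance trend, replicate block or samples. Values of every library are given for genes called in any comparison, for the 3 genes with the smallest p in each exposed group against vehicle, and for 4 reporter genes. Of the other pathway genes, at most 5 called ones per comparison with vehicle are described. No promoter sequence was used here, so a search for p53 sites was not run. Of the wider list, 1 gene called lower is counted but not reported here by name.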

Additional observations from a re-analysis of the deposited data

Results flagged for a closer look

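In 10 of 216 sets of 4 libraries (36 genes in 6 groups, 4.63%), 1 library stood far from the other 3 by Dixon's gap test. The cutoff is set to flag about 1 in 20 sets of independent normal values. The sets here share libraries, so the share does not tell whether these libraries stand apart by chance. The ribonucleotide reductase gene rrm2b gave 4 of them, each with 1 high library. It had 3.66 FPKM in replicate 4 at 10 µM arsenite (the others 0.117 to 0.443), 3.07 in replicate 3 at 30 µg/L uranyl nitrate (0.201 to 0.367), 2.07 in replicate 3 at 300 µg/L (0.235 to 0.363) and 4.38 in vehicle replicate 3 (0.222 to 0.281). The bypass polymerase gene polh was high in that same replicate 3 at 30 µg/L, at 0.999 FPKM (the others 0.186 to 0.249). The cyclin G1 gene ccng1 had 64.8 FPKM in vehicle replicate 1 (25.6 to 27.7). The sestrin gene sesn1 had 163 FPKM in mixture replicate 1 (129 to 134). The stress sensor gene gadd45ba had 48.7 FPKM in replicate 2 at 30 µg/L (36.6 to 38.4). At 1 µM arsenite, the nuclease subunit gene ercc1 was low in replicate 2, at 5.87 FPKM (6.96 to 7.08), and the checkpoint kinase gene chek2 was low in replicate 3, at 0.843 FPKM (1.34 to 1.36).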

How the results depend on the processing

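None of the 17 calls among the 36 genes changed sign under the alternatives run. The number of them kept was 17 with a pseudocount of 0.1, with a filter at 1 FPKM or with median-of-ratios scaling, 16 with limma voom on recovered reads (chosen after seeing the data), 15 with the same total per library, 14 without the variance trend, 12 without a filter and 9 when only the groups compared were fitted. At 10 µM arsenite against vehicle, 0 genes were called without a filter, 0 with only the groups compared and 2 with the same total per library. Of all genes tested, 123 were called higher and 20 lower without a filter, among 30944. With only the groups compared 56 were higher and 2 lower, and with the same total 148 and 20, among 22682. The main fit called 135 higher and 30 lower. At 300 µg/L uranyl nitrate against vehicle, 2 were called without a filter (gadd45bb and parp1, where 0.882% of all genes were) and 1 with only the groups compared (0.423%). That 1 gene was btg2, so none of the 4 calls reported there was kept with only the groups compared. Their adjusted p was then 0.0577 for sesn1, 0.103 for gadd45bb, 0.0733 for gadd45ba and 0.0536 for parp1. For the mixture, 0 genes were called with only the groups compared, where 13 of all 22682 genes were called higher and 4 lower. Leaving out 1 library at a time gave 0 to 1 genes at 1 µM arsenite, 0 to 2 at 10 µM, 0 to 0 at 30 µg/L uranyl nitrate, 0 to 7 at 300 µg/L and 0 to 1 in the mixture, all against vehicle, 4 to 10 at 300 against 30 µg/L, and 0 to 0 in the other 4 comparisons. Calls over all genes also varied between these fits. At 1 µM arsenite they ran from 10 higher and 1 lower (without vehicle replicate 1) to 52 and 2 (without replicate 3 of that group). The genes gained under some settings were btg2, atm, apex1, phlda3 and gadd45bb.

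Replicate numbers run through all groups, but same-numbered libraries did not deviate together: the median correlation over 60 pairs was 0.000194, with 2 pairs above 0.1, and 8 of 24 libraries lay closest to their own number. With the replicate block, the counts of calls were the same in all 10 comparisons, 11 at 300 against 30 µg/L and 4 at 300 µg/L against vehicle, where gadd45ba was lost (adjusted p 0.0515) and btg2 gained (0.0491).

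Depth limits the low genes most: rrm2b rests on as few as 6 reads in a library, and the pseudocount of 1 shrinks fold changes most at low FPKM. At 300 against 30 µg/L, the log2 fold change of chek1 reached -0.747 under the alternatives and that of apex1 -0.546. Which of these 2 genes fell most thus depends on the setting.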
